A study of Homo sapiens with 8 samples.

Results

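The genes described here are the numbered zinc finger genes with the highest counts in HepG2, an established line from a human liver carcinoma. Of 26716 genes in the deposited table, 475 are listed as mRNA and carry a symbol made of ZNF and a number. The 200 with the highest mean read count over all 8 libraries were taken, and these are called members below. Their mean counts ran from 174.43 to 2898.13, with a median of 420.65. The last genes inside that limit were ZNF45 (175.84), ZNF41 (174.48) and ZNF823 (174.43), and the first outside were ZNF684 (173.63), ZNF821 (173.34) and ZNF587 (172.62). Because the members were chosen by their mean read count, their levels are given as a description with no test. All 200 passed the filter on low counts.

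Most proteins with these names are C2H2 zinc finger proteins, in which each finger folds around a zinc ion held by a pair of cysteines and a pair of histidines and contacts a few bases of DNA. Many also carry a KRAB box, a short domain that binds the corepressor TRIM28. TRIM28 in turn brings the histone methyltransferase SETDB1, heterochromatin proteins of the CBX family and deacetylases, and the best known targets of this system are transposable elements. The KRAB zinc finger family grew by tandem duplication, and its largest clusters lie on chromosome 19. A SCAN domain, present in a smaller number, lets such proteins pair with each other.

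The study transfected HepG2 cells with a miR-552-3p mimic or a control mimic at 1 nM, together with an siRNA to importin8 (gene IPO8) or a control siRNA at 30 nM, and took RNA after 72 h. A mimic is a synthetic RNA that acts in place of a mature microRNA, and importin8 is a nuclear transport receptor known to carry Argonaute proteins. The 4 groups of 2 libraries are called NC (control mimic and control siRNA), miR-552-3p (mimic and control siRNA), siIPO8-NC (control mimic and importin8 siRNA) and siIPO8-miR-552-3p (mimic and importin8 siRNA). Every group therefore carries both kinds of small RNA, and no untransfected cells were included. The labels give the source as human liver beside the cell line, and do not say whether the 2 libraries of a group are separate cultures. The p-values therefore rest on differences between the libraries of a group that could be technical only. Reads were single-end and 50 bases long, from oligo(dT)-selected RNA.

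IPO8 itself was at 34.65 and 33.3 CPM (counts relative to a library size scaled by TMM) in NC and at 11.4 and 11.5 in siIPO8-NC. It was at 25.4 and 24.6 in miR-552-3p and at 7.65 and 8.30 in siIPO8-miR-552-3p. Both libraries with the importin8 siRNA were below both without it in each mimic arm, and in cells with control mimic the fall was 1.57 on the log2 scale (edgeR quasi-likelihood test, Benjamini-Hochberg adjusted p = 4.5e-07). In cells with control siRNA the mimic lowered IPO8 by 0.44 (adjusted p = 0.00083), a log2 fold change of -0.44. Library totals lay between 21608563 and 22102373 counts. All 10 hepatocyte markers examined were present, at a summed 47550 to 72700 CPM, whereas the summed markers of fibroblasts reached at most 19.8 CPM, with 2 of 6 at 0 in every group. Endothelial markers summed to 75.4 to 81.2 CPM in NC and to 19.5 to 30.7 CPM elsewhere, and 4 measured blood cell markers to 6.57 to 8.33 CPM in NC and to 59.2 to 136 CPM elsewhere. Cholangiocyte markers summed to 916 to 923 CPM in miR-552-3p and to 327 to 555 CPM in the other groups. The part of these shifts in the results below was not tested. In bulk RNA of this kind, fewer cells of a type and less RNA per cell cannot be told apart.

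The mature miR-552-3p listed in RefSeq (GRCh38.p14, chr1:34669614-34669634, minus strand) is shown first because its seed, bases 2 to 8, decides which 3′ UTR sites it can pair with; the seed is in capitals.
miR-552-3p: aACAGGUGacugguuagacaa
The complement of that seed, CACCTGT, was searched on the sense strand of the 3′ UTR of 1 coding transcript per gene (GENCODE 29, GRCh38). It occurred 75 times in 51 members (25.5%), against 18.12% of the other mRNA genes of like level for which a transcript was found. The match ran on into a fixed longer sequence in 7.5% of members and 3.38% of those genes. Only other matches were found in 18% and 14.74%. The members' 3′ UTRs were also longer, with a median of 1378 bases against 1120. The members with 2 or more matches numbered 16. Shown next are sites of 3 members among these 16 that fell with the mimic in both siRNA arms, all without that longer sequence. Each line is a stretch of 3′ UTR, 5′ to 3′, with the match in capitals.
ZNF211 first site (chr19:57642233-57642239, plus strand): ctgaaggagtaCACCTGTgagagagacaag
ZNF211 second site (chr19:57642435-57642441, plus strand): atcatgtctacCACCTGTgaggtccacaca
ZNF346 first site (chr5:177064912-177064918, plus strand): gaggcccctgcCACCTGTctttcctctaaa
ZNF346 second site (chr5:177065820-177065826, plus strand): ccctatcccttCACCTGTgaaatgcctttg
ZNF510 first site (chr9:96757869-96757875, minus strand): agttatcagatCACCTGTcagggtatgaca
The members that fell in both arms with 2 or more matches also include ZNF426, ZNF431 and ZNF704, and ZNF655 was the 1 of the 16 that rose in both.

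Levels between genes are compared per length, as the deposited FPKM. The members had a median FPKM of 4.23 (range 0.851 to 54.2). ZNF207, known for a role at the mitotic spindle, stood highest at 54.2, followed by ZNF787 at 34.6, ZNF593 at 34.3, ZNF219 at 25.6 and ZNF664 at 23.9. ZNF593 takes part in the assembly of the large ribosomal subunit. A profile search of the translated transcripts found a KRAB box in 106 members and a SCAN domain in 12, with both in 5. The median number of C2H2 fingers was 10, the highest was 31, and 138 members had 8 or more. Members lay on chromosome 19 in 74 cases (37%), against 5.48% of other mRNA genes of like level. Coding length had a median of 1756 bases, against 1407 in those genes. The sequence that members share with other genes was low for most: the share of a member's 50-base windows found in another gene's transcript had a median of 0.2%, and 92 members had none. It was above 20% in 8 members, among them ZNF320 (99.5%) and ZNF23 (98.1%), whose counts depend on how reads were divided and are uncertain.

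Summed over the 200 members, NC held 5531 and 5700 CPM, siIPO8-NC 5079 and 5126, miR-552-3p 4719 and 4894, and siIPO8-miR-552-3p 4778 and 4673. Both NC libraries were above all others, and the 4 mimic libraries were below the 4 without mimic. Measured per gene against its own mean over the 8 libraries on a log2 scale with 0.5 CPM added, the median member stood at 0.11 and 0.15 in NC, at 0.064 and 0.060 in siIPO8-NC, at -0.10 and -0.056 in miR-552-3p and at -0.096 and -0.11 in siIPO8-miR-552-3p. The same measure over 8288 other mRNA genes of like level, meaning a mean count within the members' range, was -0.068 and -0.040 in NC and between -0.019 and 0.043 elsewhere. Of those 8288 genes 4436 lay in the count range of the highest 50 members. The set therefore leans to higher counts than the members do. NC had the highest group mean for 94 members and miR-552-3p the lowest for 75. These counts were not made for other genes, so they are not a trait shown to be particular to the members.

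The mimic with control siRNA answers how miR-552-3p changed these transcripts when importin8 was not targeted. It lowered more members than it raised: 92 fell and 40 rose, with 68 not passing the test. Over all 17715 genes tested 58.4% were called, 29.5% lower and 28.9% higher. The median log2 fold change of the members was -0.18, against -0.0078 over all genes tested and 0.031 over the other mRNA genes of like level, of which 34.52% fell and 37.46% rose. A fall of 2-fold or more was found for 29 members and a rise of 2-fold or more for 4. Over all 17715 genes tested these numbers were 2440 and 1992, and among the 8288 genes of like level 911 and 797. In both sets, falls and rises of this size were closer in number than among the members. Relative to genes of like level, then, the share called in either direction was not higher among members (66% against 71.98%), and the balance leaned to falls.

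**Figure D1:**
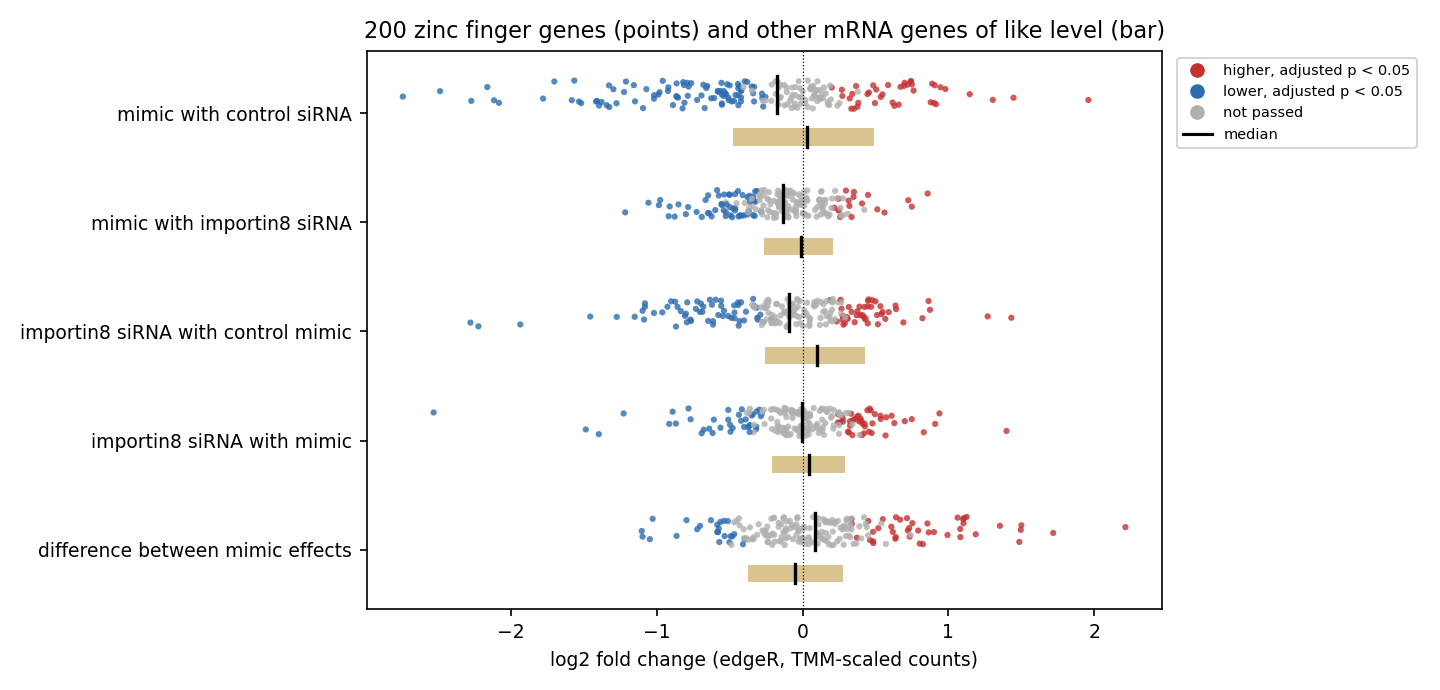
Log2 fold change (horizontal axis) of each of the 200 members (points) in the 5 comparisons, red where called higher, blue where called lower and grey where the test was not passed, with black ticks at the medians; the bar below each cloud spans the middle 50% of 8288 other mRNA genes of like level. The members' median is -0.18 for the mimic with control siRNA, to the left of 0.031 for the genes of like level.

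Among the members that rose, ZNF841 changed most. This KRAB gene with 20 fingers (chr19:52064466-52095765, minus strand, GRCh38) was at 38.7 and 42.3 CPM in NC and at 155 and 161 CPM in miR-552-3p. In siIPO8-NC it was at 54.1 and 54.7 CPM and in siIPO8-miR-552-3p at 99.97 and 97.1 CPM. The mimic libraries were above the others in each arm without overlap, and the log2 fold change with control siRNA was 1.96 (SE 0.065, edgeR quasi-likelihood adjusted p = 6.3e-09). ZNF165, a SCAN gene expressed in testis and some tumors, went from 8.15 and 8.63 CPM in NC to 22.5 and 23.3 CPM (log2 fold change 1.45, SE 0.15, adjusted p = 1.4e-05). ZNF281, a repressor linked to epithelial-mesenchymal transition, went from 26.0 and 22.8 CPM to 54.3 and 53.6 CPM (1.15, SE 0.076, adjusted p = 6.6e-07). For both genes the groups did not overlap. ZNF697, ZNF706, ZNF611, ZNF562, ZNF888, ZNF468 and ZNF23 rose by 0.76 to 1.30 on the log2 scale.

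Other members were looked up for their known roles. ZNF593, named above for ribosome assembly, was at 13.5 and 12.7 CPM in NC and at 25.6 and 23.7 CPM in miR-552-3p, a log2 fold change of 0.92 (SE 0.10, adjusted p = 2.8e-05). ZNF622, which acts in late steps of large ribosomal subunit assembly, was at 15.6 and 14.7 CPM in NC and at 28.4 and 27.7 CPM with the mimic (0.89, SE 0.087, adjusted p = 1.1e-05). ZNF598, a ubiquitin ligase that senses collided ribosomes, was at 34.6 and 34.9 CPM in NC and at 57.2 and 59.2 CPM with the mimic (0.74, adjusted p = 2.6e-05). In each of these 3 genes, picked after their values were seen, both mimic libraries lay above both NC libraries. ZNF410, an activator of CHD4 with 85.5% of its windows shared, rose by 0.59 (adjusted p = 0.00024), and ZNF202, a repressor of genes of lipid metabolism, by 0.54 (adjusted p = 0.001).

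Among the members that fell, ZNF107, a KRAB gene (chr7:64666083-64711582, plus strand), was at 69.9 and 76.6 CPM in NC and at 12.5 and 13.7 CPM in miR-552-3p. With importin8 siRNA it was at 40.4 and 43.8 CPM without the mimic and at 21.9 and 20.6 CPM with it. NC was highest and miR-552-3p lowest, with no overlap between any pair of groups. The log2 fold change with control siRNA was -2.48 (SE 0.088, adjusted p = 9.9e-09). ZNF362, a paralog of the transcription factor ZNF384 (chr1:33256545-33300719, plus strand), went from 43.6 and 51.9 CPM to 10.6 and 9.19 CPM (-2.27, SE 0.11, adjusted p = 8.8e-08). ZNF384, also a member, had a value of -0.05 and did not pass the test (adjusted p = 0.56). ZNF69 (chr19:11887784-11914329, plus strand) was at 126 and 154 CPM in NC and between 27.5 and 40.5 CPM in the other 6 libraries. NC alone stood high for this gene, and its fall with the mimic was -2.11 (SE 0.17, adjusted p = 4.1e-05).

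The steepest fall was that of ZNF320, from 47.9 and 51.0 CPM to 5.58 and 9.24 CPM (-2.74, SE 0.22, adjusted p = 1.8e-05), for a gene with 99.5% of its windows shared. ZNF704, ZNF517, ZNF839, ZNF589, ZNF101, ZNF584, ZNF641 and ZNF714 fell by between 1.52 (ZNF714) and 2.16 (ZNF704) on the log2 scale. ZNF687, a component of a chromatin complex with ZMYND8 and ZNF592, was at 51.1 and 52.4 CPM in NC and at 21.4 and 22.9 CPM in miR-552-3p (-1.22, SE 0.076, adjusted p = 4.2e-07). Its partner ZNF592 had a value of -0.07 (adjusted p = 0.41). ZNF217, an oncogene amplified in several carcinomas, fell by 0.55 (adjusted p = 0.00014), and ZNF91, which silences primate retroelements, fell by 0.58 (adjusted p = 0.0011). ZNF274, which recruits SETDB1 to zinc finger gene clusters, rose by 0.66 (adjusted p = 6.5e-05).

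**Figure D2:**
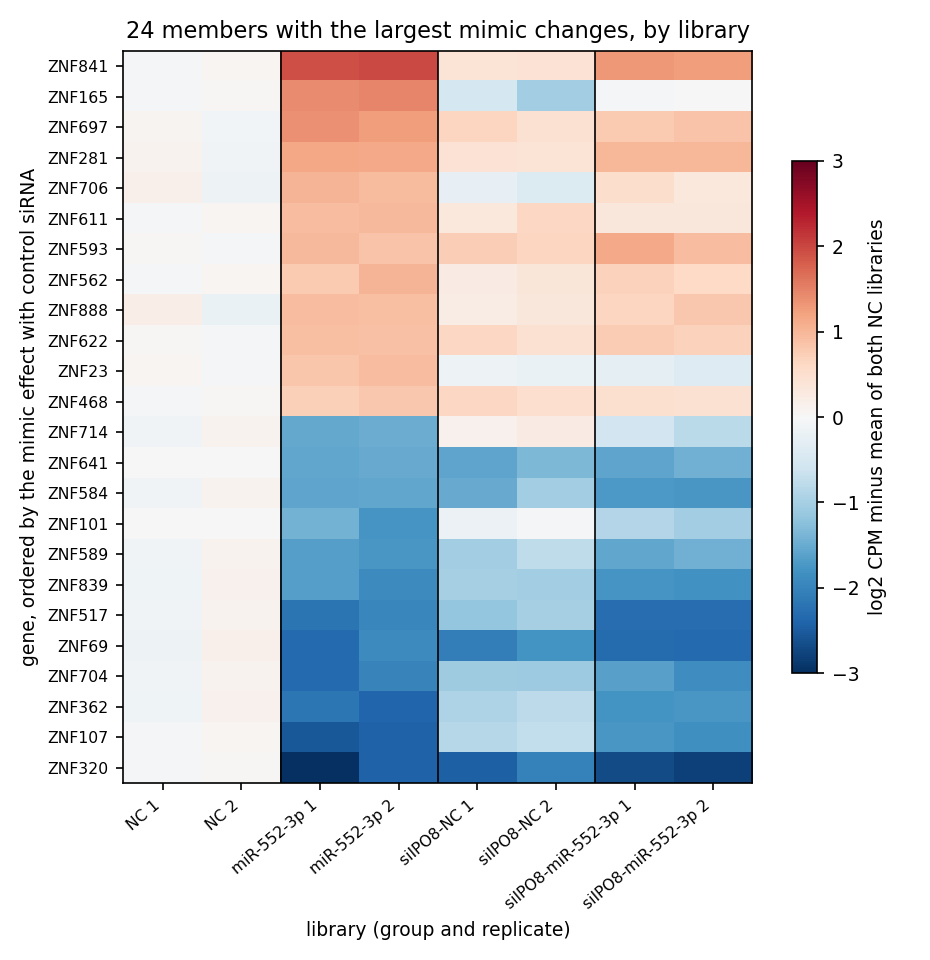
Log2 CPM of the 24 members with the largest called rises and falls with the mimic and control siRNA (rows), in each of the 8 libraries (columns), as the difference from the mean of both NC libraries. Red is above and blue below that mean; ZNF841 is at the top and ZNF320 at the bottom, and in most rows that fell the siIPO8-NC libraries lie between NC and miR-552-3p.

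Falls were spread over the kinds of member. Of the 106 with a KRAB box 54 fell and 23 rose, with a median of -0.26, and of the 94 without a match 38 fell and 17 rose, with a median of -0.14. Of the 12 with a SCAN domain 3 fell and 4 rose (median 0.0095). Members with 8 or more fingers (138, median -0.20), with 4 to 7 (35, median -0.16) and with 3 or fewer (27, median -0.17) had like values. With the members parted by mean count into 4 classes of 50, the medians were -0.38, -0.38, -0.015 and -0.072 from lowest to highest, against -0.14, -0.077, 0.037 and 0.097 in other mRNA genes of the same ranges. In each class the members' median was therefore below that of the other genes. Among 229 numbered zinc finger genes below rank 200 that passed the filter, 86 fell and 12 rose (median -0.42). These were 37.55% and 5.24%, against 29.5% and 28.9% of all genes tested. Their counts lie below the 4 classes, and no other genes of their level were set beside them. None of these differences between subgroups was tested, since the subgroups hold genes and not samples.

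**Figure D3:**
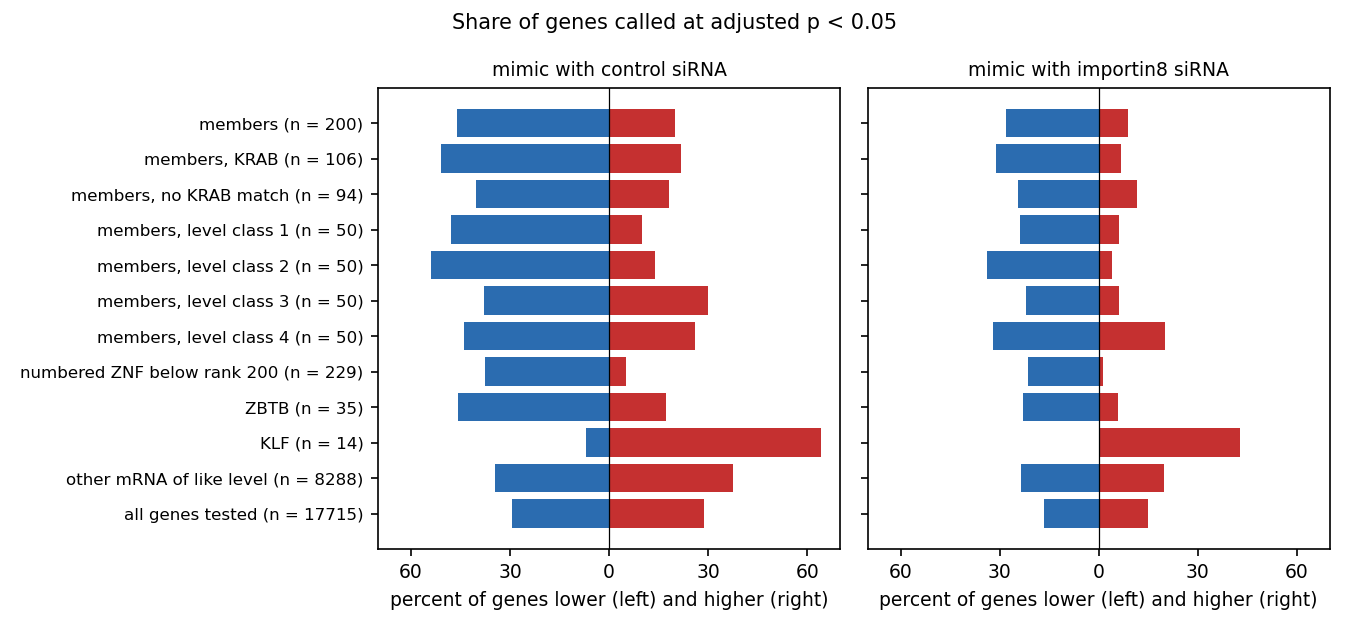
Share of genes called lower (blue, to the left) and higher (red, to the right) at an adjusted p under 0.05, in percent, for the mimic with control siRNA (left panel) and with importin8 siRNA (right panel), by group of genes with the number in each, level class 1 to 4 being the members from lowest to highest mean count. Members lean to the left (46% lower, 20% higher with control siRNA) and KLF genes to the right (7.14% lower, 64.3% higher).

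Members with a seed match were described apart. Of the 16 with 2 or more matches in the 3′ UTR 10 fell and 1 rose with control siRNA, with a median of -0.38. Of the 35 with 1 match 11 fell and 8 rose (median -0.048), and of the 149 with none 71 fell and 31 rose (median -0.21). In other mRNA genes of like level the medians were -0.054 with 2 or more matches, -0.069 with 1 and 0.059 with none. Of the 92 members that fell 71 thus had no seed match in the transcript examined, a share near the 149 of 200 over all members. ZNF211 was at 24.6 and 28.6 CPM in NC and at 10.4 and 10.6 CPM in miR-552-3p (-1.34, adjusted p = 4e-06), and ZNF346, which binds double-stranded RNA, at 21.7 and 19.6 CPM and at 10.2 and 10.8 CPM (-0.98, adjusted p = 1.8e-05). Neither gene's groups overlapped. In RefSeq promoters, 300 bases around the start site, CACCTGT or its reverse complement ACAGGTG was found in 6 of the 170 members matched (3.53%), in 2.55% of 6752 other mRNA genes of like level and in 4.11% of all 27305 promoters.

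Neighbouring genes of chromosome 19 were compared by parting its 74 members into 16 runs wherever neighbours lay over 1 Mb apart. With the mimic and control siRNA 52.7% of the 74 fell and 21.62% rose. These shares were 46% and 20% of all members, and 29.5% and 28.9% of all genes tested. Only some runs are described, and none was tested. Of the 7 members between ZNF101 and ZNF708 (chr19:19668796-21329425), 6 with a KRAB box, 6 fell with the mimic and control siRNA and none rose, with a median of -0.92. In this run ZNF714 was at 17.7 and 20.2 CPM in NC and at 6.55 and 6.69 CPM in miR-552-3p, ZNF431 at 25.5 and 30.0 CPM and at 10.3 and 11.1 CPM, and ZNF101 at 12.5 and 12.4 CPM and at 4.67 and 3.63 CPM. ZNF626 had a value of 0.16 and did not pass the test (adjusted p = 0.18). Of the 10 members from ZNF264 to ZNF584 near the end of the chromosome arm (chr19:57191500-58418327) 7 fell and 1, ZNF274, rose (median -0.71). Of the 21 members from ZNF577 to ZNF331 (chr19:51804816-53580269), all with a KRAB box, 9 rose and 8 fell (median 0.12). In that run ZNF841, ZNF616, ZNF83, ZNF611 and ZNF468 rose while ZNF577, ZNF615, ZNF813 and ZNF331 fell, so neighbours within it moved both ways. The other run of 7 members, from ZNF628 to ZNF444, held 3 falls and 1 rise (median -0.16). The 5 members from ZNF823 to ZNF791 held 4 falls and 1 rise (median -0.78).

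**Figure D4:**
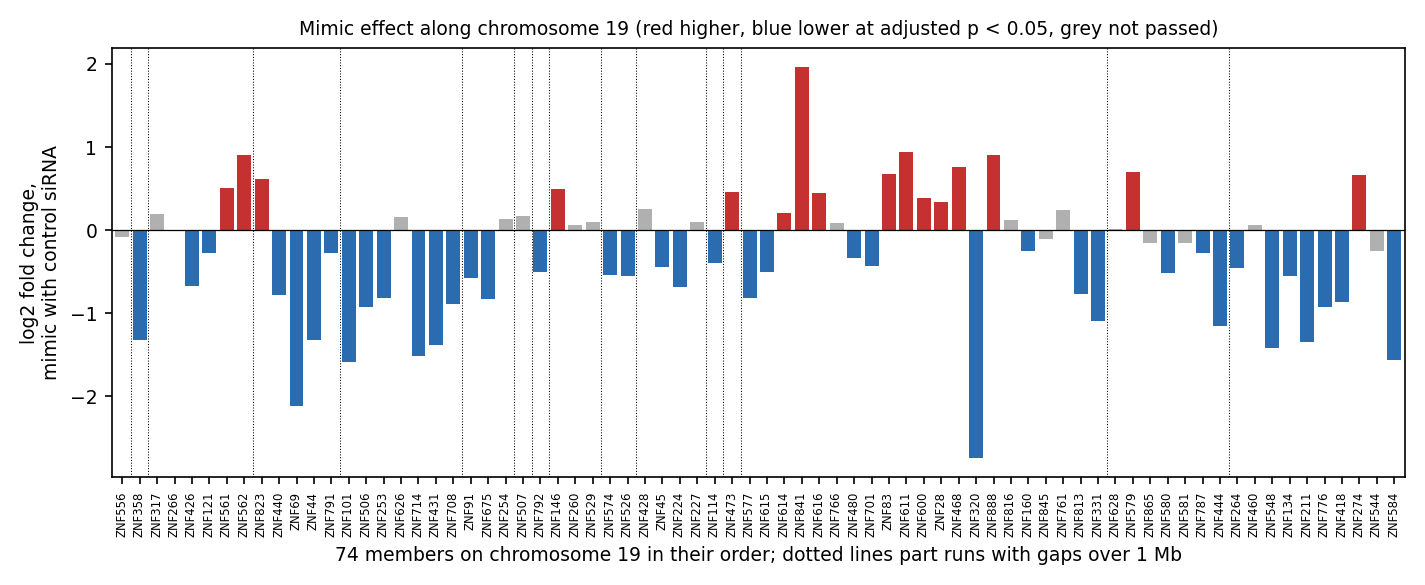
Log2 fold change for the mimic with control siRNA (vertical axis) of the 74 members on chromosome 19 in their order along it, with dotted lines where neighbours lie over 1 Mb apart. Red bars were called higher, blue lower and grey did not pass; the run from ZNF101 to ZNF708 holds 6 falls in 7 members, and the run from ZNF577 to ZNF331 holds 9 rises and 8 falls.

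The mimic with importin8 siRNA repeats the comparison in cells with lowered IPO8. Here 56 members fell and 18 rose and 126 did not pass; of all genes tested 31.7% were called, 16.7% lower and 15% higher. The median was -0.13, against -0.0096 over other mRNA genes of like level, of which 23.6% fell and 19.85% rose. By class of mean count, from lowest to highest, the members' medians were -0.17, -0.18, -0.097 and -0.060. In other mRNA genes of the same ranges they were -0.14, -0.098, -0.033 and 0.036, so the gap was small in the lowest class. Only 2 members fell by 2-fold or more and none rose so far. Such changes were also few among the 8288 genes of like level, with 179 falls and 166 rises. Over all 17715 genes tested there were 584 and 547. With library sizes scaled by total counts alone the split was 68 lower to 8 higher, in place of 56 to 18. Without siIPO8-NC library 1 or 2 the members called higher numbered 11 or 7, without siIPO8-miR-552-3p library 1 the counts were 36 lower and 7 higher, and without library 2 they were 35 and 8. DESeq2 called 35 lower and 7 higher.

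ZNF517 fell most in this arm, from 11.75 and 13 CPM in siIPO8-NC to 5.34 and 5.31 CPM in siIPO8-miR-552-3p (-1.22, SE 0.13, edgeR quasi-likelihood adjusted p = 0.00012). ZNF189, a KRAB gene, went from 61.3 and 61.9 CPM to 30.2 and 29.1 CPM (-1.06, SE 0.063, adjusted p = 4e-06), and with control siRNA from 46.3 and 46.4 CPM to 17.5 and 17.7 CPM. Mimic libraries were below the others for both genes in both arms, without overlap. ZNF107, ZNF764, ZNF362, ZNF426, ZNF714, ZNF101, ZNF318, ZNF839, ZNF346 and ZNF577 fell by 0.69 to 0.98 on the log2 scale. ZNF841 (0.86, SE 0.064, adjusted p = 1.2e-05), ZNF706 (0.75, adjusted p = 0.0018), ZNF165 (0.72, adjusted p = 0.0067) and ZNF281 (0.56, adjusted p = 0.00037) led the rises, and ZNF598 rose by 0.41 (adjusted p = 0.0038). The rises of ZNF593 (0.35) and ZNF274 (0.35) lost their call when some single libraries were left out, with adjusted p up to 0.16 and 0.088. Of the 106 KRAB members 33 fell and 7 rose (median -0.16), and of the 94 others 23 fell and 11 rose (median -0.098). Of the 16 members with 2 or more seed matches 6 fell and 1 rose, with a median of -0.37.

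The 2 mimic comparisons share no library. Across the 200 members their log2 fold changes had a Pearson r of 0.76 and a Spearman rho of 0.73, and 147 members (73.5%) had the same sign. The points share libraries, scaling and fit and are not independent, and the r over other mRNA genes of like level was 0.78. Of the members that fell with control siRNA 54.35% also fell with importin8 siRNA, and of those that fell with importin8 siRNA 89.29% also fell with control siRNA, 50 genes in both. Over other mRNA genes of like level these shares were 56.55% and 82.72%, and 78.29% had the same sign, so the members' overlap was near that background. Another 16 rose in both, and 1 member, ZNF614, was called in opposite directions. The values of ZNF614 were 0.20 with control siRNA (adjusted p = 0.033) and -0.34 with importin8 siRNA (adjusted p = 0.0041).

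**Figure D5:**
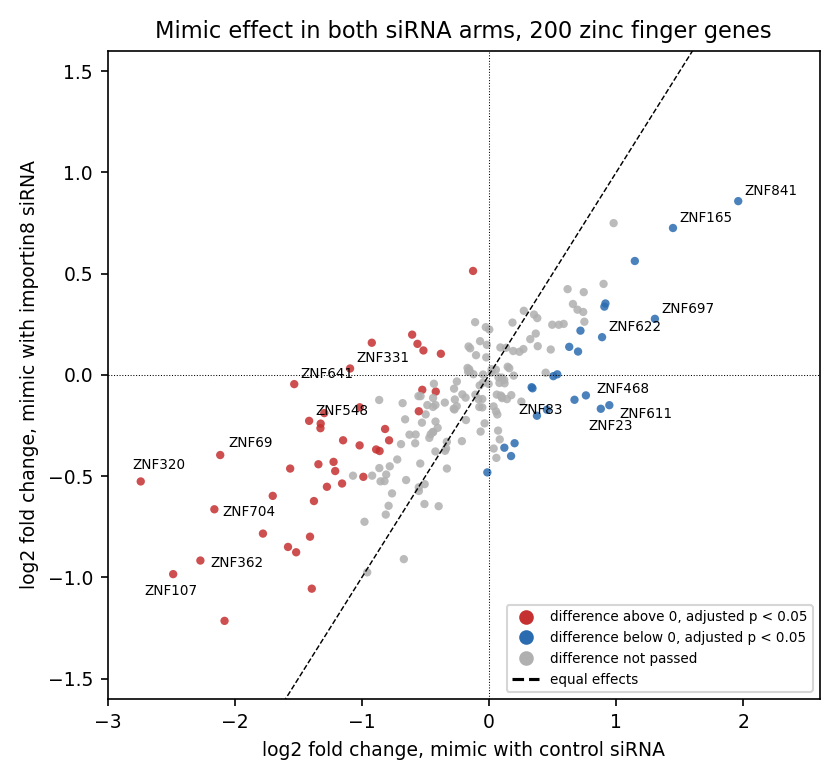
Log2 fold change of each of the 200 members for the mimic with control siRNA (horizontal axis) and with importin8 siRNA (vertical axis); the dashed line marks equal effects. Red and blue points passed the test of the difference between both effects, above and below 0, and 8 of the largest differences each way are named; points spread less along the vertical axis, where only 2 falls reach 2-fold.

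That difference between mimic effects, with importin8 siRNA minus with control siRNA, was tested as an interaction over all 8 libraries, and so shares them with each mimic comparison. It was above 0 for 43 members and below 0 for 26, where 31.3% of all genes tested were called, 14.2% above and 17.1% below 0. Without siIPO8-miR-552-3p library 2 the count below 0 was 16, and with DESeq2 it was 12. The members had a median of 0.087 against -0.053 over other mRNA genes of like level, of which 18.89% were above 0 and 24.64% below. Of the 92 members that fell with control siRNA, 45.65% were above 0, against 51.56% of the like-level genes that fell. Of the 40 members that rose, 57.5% were below 0, against 60.97%. Parted by that first call, the members' shares were therefore not above those of like-level genes. For ZNF107 the fall was smaller with importin8 siRNA (difference 1.5, SE 0.12, adjusted p = 1.5e-05 by the interaction test). The same held for ZNF704 (1.496) and ZNF362 (1.35, SE 0.16, adjusted p = 0.00016). For ZNF548 the difference was 1.19 (SE 0.12, adjusted p = 7e-05), and its value with importin8 siRNA (-0.23) was not called. ZNF641 was at 32.2 and 32.9 CPM in NC and between 10.9 and 12.8 CPM in the other 6 libraries, so that a fall was called with control siRNA (-1.53) and the value with importin8 siRNA was -0.05 (difference 1.49, SE 0.15, adjusted p = 5.7e-05). ZNF69 had the same shape (difference 1.72, SE 0.25, adjusted p = 0.0022), and so did ZNF320 (2.21, SE 0.32, adjusted p = 0.0015). In these 3 genes only NC was high. For ZNF331, which lies at one end of the 21-member run, the difference was 1.12 (SE 0.15, adjusted p = 0.00032).

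In the other direction ZNF841 rose less with importin8 siRNA (difference -1.10, SE 0.09, adjusted p = 1.6e-05). ZNF611 was at 18.8 and 19.5 CPM in miR-552-3p and between 9.59 and 15.2 CPM in the other 6 libraries (difference -1.10, SE 0.16, adjusted p = 0.00072). ZNF83 was at 55.9 and 53.1 CPM in miR-552-3p and between 28.99 and 34.8 CPM elsewhere (-0.80, SE 0.10, adjusted p = 0.00027). Both miR-552-3p libraries were above the other 6 for both genes, and ZNF611 was also called higher in siIPO8-NC than in NC (0.48). ZNF697, ZNF468 and ZNF622 had differences of -1.03, -0.86 and -0.70, and ZNF23, with 98.1% of its windows shared, of -1.05. The difference for ZNF165 (-0.72, adjusted p = 0.029) lost its call in 6 of the 8 fits that left out 1 library, with adjusted p up to 0.14, and was -0.43 without siIPO8-NC library 1.

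The importin8 siRNA with control mimic compares siIPO8-NC with NC, and shares the NC libraries with the first comparison. It left 61 members lower and 44 higher, where 47% of all genes tested were called, 21.6% lower and 25.4% higher. The members had a median of -0.095 against 0.099 over other mRNA genes of like level, of which 24.53% fell and 37.37% rose. ZNF114, a KRAB gene with 3 fingers (chr19:48270102-48287608, plus strand), was at 79.4 and 71.2 CPM in NC and at 13.5 and 17.6 CPM in siIPO8-NC. It was at 50.2 and 64.2 CPM in miR-552-3p and at 9.47 and 10.3 CPM in siIPO8-miR-552-3p. Libraries with importin8 siRNA were below those without in both arms (-2.28, SE 0.16, edgeR quasi-likelihood adjusted p = 1e-05). ZNF792 (chr19:34956354-34964049, minus strand) showed the reverse order, at 10.8 and 7.80 CPM in NC and at 26.5 and 23.5 CPM in siIPO8-NC (1.43, SE 0.15, adjusted p = 4e-05). ZNF92 went from 12.8 and 11.5 CPM to 29.6 and 29.1 CPM (1.27, SE 0.11, adjusted p = 8e-06), and ZNF473, a factor of histone pre-mRNA processing, from 10.5 and 9.47 CPM to 19.3 and 17.2 CPM (0.87, SE 0.10, adjusted p = 8.5e-05). ZNF614 (0.86), ZNF777 (0.82), ZNF593 (0.69) and ZNF622 (0.54) rose as well. Beside ZNF320, ZNF69 and ZNF641, the falls were led by ZNF584 (-1.27), ZNF852 (-1.15), ZNF440 (-1.10), ZNF704 (-1.09), ZNF514 (-1.08), ZNF517 (-1.08), ZNF839 (-1.02) and ZNF616 (-0.96). ZNF644, a partner of the methyltransferases EHMT1 and EHMT2, fell by 0.47 (adjusted p = 0.00032). Of the KRAB members 35 fell and 19 rose (median -0.16), and of the others 26 fell and 25 rose (median -0.061).

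With the mimic present, the importin8 siRNA left 43 members higher and 37 lower, where 33.5% of all genes tested were called, 17.3% higher and 16.2% lower. This comparison shares the miR-552-3p libraries with the first and the siIPO8-miR-552-3p libraries with the second. Without miR-552-3p library 1 the members called higher numbered 22, and without library 2 the counts were 28 higher and 23 lower. Without siIPO8-miR-552-3p library 1 they were 20 and 20, without library 2 they were 27 and 20, and DESeq2 called 19 and 20. The median was -0.0043, against 0.047 over genes of like level. Of those genes 26.28% rose and 20.17% fell, against 21.5% and 18.5% of the members. ZNF114 again fell most (-2.53, SE 0.17, adjusted p = 1.6e-05) and ZNF792 rose most (1.40, SE 0.16, adjusted p = 0.00012). ZNF92 rose (0.91), as did ZNF675 (0.94), ZNF714 (0.83), ZNF189 (0.75), ZNF107 (0.70), ZNF275 (0.61) and the zinc finger activator ZNF148 (0.54). ZNF616, at 17.3 and 16.4 CPM in miR-552-3p and at 6.59 and 6.22 CPM in siIPO8-miR-552-3p, fell by 1.40 (SE 0.12, adjusted p = 2.1e-05). ZNF165 went from 22.5 and 23.3 CPM to 8.08 and 8.26 CPM (-1.49, SE 0.15, adjusted p = 4.3e-05). For ZNF616 and ZNF165 the groups did not overlap. ZNF267 (-0.91), ZNF717 (-0.89), ZNF83 (-0.87), ZNF561 (-0.78), ZNF146 (-0.69), ZNF841 (-0.68) and ZNF74 (-0.64) fell too. ZNF440 fell by 0.77, and without the second siIPO8-miR-552-3p library its adjusted p was 0.055.

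The 2 siRNA comparisons also share no library. Their log2 fold changes over the 200 members had an r of 0.41 and a rho of 0.31, and 122 members (61%) had the same sign, against an r of 0.32 over genes of like level. In both arms 17 members fell, which is 27.87% of those that fell with control mimic and 45.95% of those that fell with mimic, against 36.89% and 44.86% over genes of like level. In both arms 18 rose (40.91% and 41.86%, against 42.17% and 59.96%). Opposite calls were made for 14 of the 200 members and for 673 of the 8288 genes of like level, like shares. Among these 14 were ZNF107, ZNF362 and ZNF704, lower than NC in siIPO8-NC and higher than miR-552-3p in siIPO8-miR-552-3p, and ZNF841, ZNF697 and ZNF611 with the opposite pair of calls. Over the 4 pairwise comparisons 34 members were called in none and 21 in all.

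Of 23 measured genes of the KRAB silencing machinery, 10 fell (43.48%) and 3 rose (13.04%) with the mimic and control siRNA (median -0.25). Over all genes tested 29.5% fell and 28.9% rose. With importin8 siRNA 9 fell (39.13%) and none rose, against 16.7% and 15% of all genes tested. The list also holds genes with wider roles in chromatin, among them UHRF1, DNMT1 and DAXX. No other genes of like level were set beside it. UHRF1, which links DNA methylation to histone marks, was at 34.2 and 37.3 CPM in NC and at 13.9 and 13.5 CPM in miR-552-3p (-1.39, adjusted p = 4.2e-07). CBX5, a heterochromatin protein, went from 36.9 and 41.8 CPM to 16.4 and 15.1 CPM (-1.32, adjusted p = 6.7e-07), and FAM208A (TASOR), a core subunit of the HUSH silencing complex, from 61.8 and 68.1 CPM to 24.3 and 26.8 CPM (-1.35, adjusted p = 1.1e-06). With control siRNA these were the only 3 falls of 2-fold or more on the list. All 3 also fell with importin8 siRNA, by 1.61, 0.87 and 0.68. The 3 rises by the edgeR test with control siRNA were CBX1 (0.27, adjusted p = 0.0034), SMARCAD1 (0.24, adjusted p = 0.02) and DAXX (0.23, adjusted p = 0.011). CBX3 did not pass (-0.029, adjusted p = 0.73), so of the 3 CBX genes on the list only CBX5 fell. TRIM28, which KRAB boxes bind, was at 192 and 178 CPM in NC and at 179 and 164 CPM in miR-552-3p, groups that overlap, and did not pass the test (-0.11, adjusted p = 0.19). SETDB1 fell by 0.28 (adjusted p = 0.027). The importin8 siRNA with control mimic left 6 of the 23 higher and 4 lower (26.1% and 17.4%). These shares were near the 25.4% and 21.6% over all genes tested. SUV39H1 (0.77) and UHRF1 (0.71) were among the rises.

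Other zinc finger families named by root and number did not all shift as the members did. Of 35 ZBTB genes 16 fell and 6 rose with the mimic and control siRNA (45.7% and 17.1%, median -0.36). Over all genes tested 29.5% fell and 28.9% rose. ZBTB38, which binds methylated DNA, was at 262 and 258 CPM in NC and at 59.3 and 68.6 CPM in miR-552-3p (-2.02, adjusted p = 1.8e-08), and ZBTB46 fell by 3.72 (adjusted p = 2e-08). Of 15 ZSCAN genes 5 fell and 4 rose (33.3% and 26.7%), near the shares over all genes tested. Of 7 ZKSCAN genes 4 fell (57.1%) and none rose, and of 12 ZFP genes 4 fell and 2 rose (33.3% and 16.7%). Of 14 KLF genes, which carry a triple finger at their end and bind GC-rich promoters, 9 rose and 1 fell (median 0.59). KLF6 was at 127 and 107 CPM in NC and at 283 and 283 CPM in miR-552-3p (1.28, adjusted p = 9.3e-07), KLF5 rose by 2.48 (adjusted p = 8.6e-05) and KLF4 by 3.501 (adjusted p = 1.1e-06). KLF7 fell by 0.26 (adjusted p = 0.046).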

How the data were processed

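Gene levels of 8 HepG2 libraries were deposited as 1 table. Per the file headers and values, the authors' table gives an expected count and an FPKM per gene and library; 26.54% of the expected counts are whole numbers within a tolerance of 1e-06. The deposited FPKM values were read from columns headed Expression, whose size fits counts per length and depth. The submitters' processing notes name HISAT2 2.0.4, Bowtie2 2.2.5, RSEM 1.2.8 and GRCh38.p12, with no role. Columns were matched to samples by name, and a 5 before the replicate number was taken to mark the mimic. Whether counting used strand was not given in the sources here, so members that overlap or run antisense to other genes are uncertain, as are close paralogs, among which expected counts divide reads.

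Expected counts were rounded, filtered with filterByExpr (17715 genes), scaled by TMM (factors 0.9607 to 1.057) and fitted in edgeR 4.0.16 (R 4.3.3; quasi-likelihood, robust) with a mean per group over all 8 libraries. A gene was called where its p, adjusted by Benjamini-Hochberg across the genes tested, was under 0.05. SE was obtained by dividing the size of the log2 fold change by the square root of F. The fit was tested on simulated counts. Libraries of a group differed by more than sampling noise, with a chi-square of 4.53 to 10.6 per degree of freedom. Named members are the 12 largest called rises and falls per comparison (8 for the difference) without overlap of groups, the 5 highest by FPKM and those at the limit of rank 200; others named were chosen after their values were seen, for known roles. Finger, KRAB and SCAN counts come from translated GENCODE 29 transcripts, the latter 2 by sequence profiles. The members and lists were chosen with earlier results of these data known.

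Alternatives were DESeq2 1.42.0, limma-voom (limma 3.58.1), other scalings, no filter, a replicate block, fits of the 4 libraries compared, each library left out, and other choices of members. The check that same-numbered libraries deviate together gave correlations of -0.003 to 0.087, so the numbers were not taken as pairs. Some seed match sequences are not reported here.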

Additional observations from a re-analysis of the deposited data

Results flagged for a closer look

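Of the members whose mimic effect differed between the siRNA arms by the interaction test of edgeR (43 above 0 and 26 below 0), the 8 largest each way by the rule for named members are given. The differences, with importin8 siRNA minus with control siRNA on the log2 scale, were 2.21 for ZNF320, 1.72 for ZNF69, 1.5 for ZNF107, 1.496 for ZNF704, 1.49 for ZNF641, 1.35 for ZNF362, 1.19 for ZNF548 and 1.12 for ZNF331. They were -1.10 for ZNF841, -1.10 for ZNF611, -1.05 for ZNF23, -1.03 for ZNF697, -0.86 for ZNF468, -0.80 for ZNF83, -0.72 for ZNF165 and -0.70 for ZNF622. The value for ZNF165 was -0.43 without siIPO8-NC library 1, and its call was lost in 6 of 8 fits without 1 library. The counts of ZNF320 and ZNF23 depend on the division of reads among genes that share their sequence.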

How the results depend on the processing

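Of 282 member counts and medians recomputed, 243 stayed near the main value and 39 moved, and of 1855 values of named genes 1801 kept their call, 54 lost it and 0 reversed. For the mimic with control siRNA the members' median was -0.2405 with total counts only, -0.2362 with upper quartile scaling and -0.0593 with 100 members. For the mimic with importin8 siRNA DESeq2 called 7 higher and 35 lower, total counts only called 8 higher, and the median was -0.2062 with total counts only and -0.07852 with 100 members. For the importin8 siRNA with control mimic the median was -0.1615 with upper quartile scaling and -0.03415 with 100 members. For the importin8 siRNA with mimic DESeq2 called 19 higher and 20 lower, and total counts only gave 36 and 39 with a median of -0.03034. Its median lies near 0 and changed sign under several alternatives, among them to 0.003804 with no filter and 0.02429 without miR-552-3p replicate 2. For the difference DESeq2 called 12 below 0, and the median was 0.1461 with upper quartile scaling, 0.04739 with members taken by mean FPKM (173 of them shared) and 0.04307 with 100 members. The causes of these shifts were not tested.

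With 1 library left out, which leaves a lone sample assumed to vary like the other groups, the lowest and highest values were as follows. The mimic with control siRNA gave 35 to 42 higher, 79 to 91 lower and medians of -0.211 to -0.1652. With importin8 siRNA it gave 7 to 21, 35 to 56 and -0.1499 to -0.1068. The importin8 siRNA gave 31 to 44, 52 to 62 and -0.1139 to -0.07107 with control mimic, and 20 to 43, 20 to 35 and -0.0369 to 0.02429 with mimic. The difference gave 32 to 45 above 0, 16 to 25 below and 0.05505 to 0.09525.

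With the replicate number as a block, although the numbers were not taken as pairs, the counts of higher and lower members were 40 and 93, 19 and 58, 45 and 62, 42 and 34, and 44 and 28 for these 5 comparisons in turn. The fit of the 4 libraries compared does not exist for the difference, which needs all 8. Low depth limits members near a mean count of 174.43 most.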
